A study of Mus musculus with 5 samples.

Results

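The 9 genes described here belong to the NRF2 antioxidant pathway and were measured in cultured mouse cardiac fibroblasts (CF) by SLAMseq. They are Nfe2l2, Keap1, Hmox1, Nqo1, Gclc, Gclm, Gsr, Txnrd1 and Srxn1. They were picked by name from the 20365 genes of the tables, which list 40428 distinct 3′ end intervals, and all 9 were found. Each gene is represented by its most read interval, judged by the deposited CPM averaged over the labeled libraries. The CF came from hearts of adult healthy male C57Bl/6J wildtype mice, were freed by perfusion with collagenase and were grown to confluency. In 3 labeled libraries the cells took up 0.1 mM 4-thiouridine (S4U) for 12 h, and in 2 unlabeled libraries cells of the same kind were kept alongside for 12 h with no S4U. All RNA was alkylated, so the presence of S4U is the only stated difference between the groups. A pair of wells was used for each sample, and the study describes its SLAMseq replicates as separate CF preparations. Whether the unlabeled libraries came from the same preparations as the labeled ones, and how many mice stand behind a library, is not given in the sources used here.

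S4U is a uridine analog that enters RNA while it is being made, and after alkylation it is read as C where the genome has T. The T>C conversion rate is the share of covered T positions read as C, and it rises with the share of a transcript made during the labeling. NRF2, encoded by Nfe2l2, is a transcription factor that KEAP1 holds in the cytoplasm and hands over for degradation. Oxidants and electrophiles modify KEAP1, NRF2 then enters the nucleus, pairs with small MAF proteins and binds antioxidant response elements in the promoters of detoxifying genes. A thiol-bearing nucleoside given to cells for hours could act as a stress, so it was asked whether reads of these genes were higher in the labeled libraries.

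Library depth, as reads counted on 1 interval per gene, ran from 506045 to 1843033, and the third labeled library was the shallowest. Levels are given as CPM relative to counted reads, that is, reads of an interval scaled to a fixed total of the library's counted reads. The deposited CPM divides by a number that is 7.58 to 28.9 times larger and differs between libraries. The library kit reads the 3′ end of a transcript, so levels were not divided by transcript length. Of 9 fibroblast markers all were found, with a summed level of 39019 to 42627 CPM in the labeled and 31754 to 35223 CPM in the unlabeled libraries. Most of this sum is collagen. Of the single markers Col1a1 was higher in every labeled library than both unlabeled ones, Pdgfra and Ddr2 were lower, and the other 6 overlapped. The study's isolation protocol removes CD31+ and CD45+ cells with magnetic beads before seeding. The 5 cardiomyocyte markers summed to at most 8.03 CPM in any library, and Ryr2 was at 0 in all of them. The 7 macrophage markers summed to 55.2 to 99.6 CPM in labeled and 60.2 to 104 CPM in unlabeled libraries, and the 5 endothelial markers to 113 to 204 and 160 to 223 CPM. The 4 mural cell markers summed to 5.86 to 13.8 and 4.02 to 7.05 CPM. Of these lists the endothelial Cdh5 and Emcn and the macrophage Adgre1 were lower in all labeled libraries than in both unlabeled ones, and the mural Cspg4 was higher, at 1.00 to 5.93 CPM. Among all genes tested for reads, 13.1% were lower in this way and 8.2% higher. Adgre1 had 1 to 14 reads per library and Cspg4 1 to 7.

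All 9 genes had reads in every library, and the T>C rate of all 9 was higher in the labeled libraries (beta-binomial test, unadjusted p from 6.9e-08 for Nfe2l2 to 0.00173 for Nqo1). This is the usual outcome in these libraries, since 94.6% of the 19240 intervals tested were called higher. At an adjusted p below 0.05 edgeR's quasi-likelihood test called 0 of the 9 genes higher and 0 lower, and among all 9807 genes tested it called 0% higher and 0% lower. With the replicate number as a block, edgeR called 528 genes higher and 618 lower. Of the 9 genes only Gclm was among them, as higher (edgeR adjusted p 7.2e-05). The labels do not say that these numbers pair the libraries. DESeq2 called 13 of all genes higher and 7 lower, and none of the 7 members for which it gave an adjusted p (it gave none for Nqo1 and Gsr). At an unadjusted p below 0.05 the main edgeR fit called Gclm alone higher and no gene of the 9 lower. Of all genes it called 2.84% higher (279) and 3.12% lower (306). The call of Gclm ended when either unlabeled library was left out, while its fold change stayed about as large. Its log2 fold change was 0.82 without unlabeled library 1 and 0.70 without unlabeled library 2, beside 0.76 in the main fit. These are bulk cultures, so fewer cells of a type and less RNA per cell cannot be told apart. DESeq2 gave the same counts for the 9 genes and called 198 genes higher and 196 lower at that threshold. The fold change was above 0 for 5 of the 9 genes, with a median log2 fold change of 0.16 beside 0.018 over all genes tested. Without labeled library 1 these medians were 0.0043 and -0.0079. With the replicate number as a block 7 of the 9 were above 0 (median 0.16), as they were without unlabeled library 1 (median 0.24).

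Short stretches of the sequenced 3′ ends are shown for the 4 genes with the deepest coverage, since the conversions were counted in these ends. All 9 intervals lie in the last exon of the gene, 99.29% to 100% of their bases are annotated as UTR, and none overlaps an exon of another gene. The pentamer ATTTA, the core of AU-rich elements known from short-lived messages, is in capitals in the lines below, which read 5′ to 3′ on the strand of the gene. The letters were searched on the strand of the transcript only, in GRCm39.
Nfe2l2: tacagaacttATTTAtactgttctc
Hmox1: ggaaagaattATTTAatagttgtaa
Gclm: acgaatggaaATTTAatgtgtgtgt
Txnrd1: agccaaaccaATTTAtccccagaaa
The Nfe2l2 stretch lies at chr2:75506038-75506062 on the minus strand, and the others at chr8:75827142-75827166, chr3:122060582-122060606 and chr10:82732373-82732397 on the plus strand. Nfe2l2, Hmox1, Gclm and Nqo1 each hold 1 such pentamer, Srxn1 holds 2, Gsr 3, and Gclc and Txnrd1 hold 4 each, of which 2 in Txnrd1 overlap. For Txnrd1 the first of the 4 is shown. Keap1 holds 0. Among intervals of similar length (within 10%), the pentamer occurs in 50.9% of those matched to Nfe2l2, 54.99% for Hmox1, 67.3% for Gclm and 88.0% for Txnrd1. For the other genes the share runs from 57.0% (Nqo1) to 93.5% (Srxn1), and it is 72.5% for Keap1. The median number of pentamers in such intervals is 3 for Srxn1, 2 for Gclc and Txnrd1, and 1 for each of the others. A match describes the letters only.

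The core of the antioxidant response element, TGACNNNGC, was searched on both strands of the RefSeq promoter windows, which run from 250 bases before to 50 bases after a start site in GRCm38.p6. Windows were found for 6 of the 9 genes, and 4 of these 6 held the core, beside 12.4% of 32851 windows and 14.0% of 27025 genes. The matches are shown with the core in capitals because this is the element that NRF2 is known to bind.
Nfe2l2: tcagcccaccTGACTCCGCcatgccccgg
Gclm: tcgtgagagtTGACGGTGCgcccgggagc
Srxn1: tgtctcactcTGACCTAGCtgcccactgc
Txnrd1: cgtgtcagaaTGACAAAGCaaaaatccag
They lie at chr2:75704885-75704913, chr3:122245413-122245441, chr2:152105542-152105570 and chr10:82859104-82859132, and each is written as read on the minus strand. None of them holds the related AP-1 site TGACTCA. The core lies 240, 134 and 92 bases before the start site for Nfe2l2, Gclm and Txnrd1, but after it for Srxn1. Txnrd1 has 3 windows, 1 of which held the core. The windows of Nqo1 and Keap1 held no match, which says only that these letters are not in those windows. Hmox1, Gclc and Gsr were not matched to a window.

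Nfe2l2 and Keap1 encode the regulators of the pathway. Nfe2l2 was read at 237, 154 and 160.1 CPM in labeled libraries 1, 2 and 3 and at 175 and 159 CPM in unlabeled libraries 1 and 2. The labeled values enclosed the unlabeled ones, and the log2 fold change was 0.22 ± 0.27 (SE, 95% interval -0.43 to 0.86, edgeR adjusted p 1.00). Without labeled library 1 it was 0.0043. The T>C rate of Nfe2l2 was 0.0456, 0.0433 and 0.0448 in the labeled and 0.0005 and 0.00051 in the unlabeled libraries. Its mean of 0.0446 ± 0.00116 (SD, n = 3) was the steadiest of the 9 genes. It rested on 2032 to 9094 covered T positions per labeled library, at chr2:75505857-75506304, in exon 5 of 5. Its level was above that of 90.7% of the genes with a read in every labeled library.

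Keap1 encodes the sensor that keeps NRF2 low. Its levels were 78.7, 102.1 and 107 CPM in the labeled and 83.6 and 87.3 CPM in the unlabeled libraries, so the groups overlapped. A log2 fold change of 0.24 ± 0.28 (SE, 95% interval -0.42 to 0.90) was fitted. The Keap1 rate was 0.0371, 0.0350 and 0.0451 after labeling, beside 0.001 and 0.00139 without it. The third value rests on 35 conversions among 776 covered T positions, with an exact 95% interval of 0.0316 to 0.0622 that holds the other two. Keap1 was counted at chr9:21141026-21141997, in exon 6 of 6.

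Hmox1 encodes heme oxygenase 1, the inducible enzyme that opens the heme ring. It had the highest T>C rate of the 9 genes, and its levels differed widely between libraries of a group. The reads stood at 272, 116 and 148 CPM in the labeled libraries and at 289.7 and 109 CPM in the unlabeled ones. The library numbered 1 was the highest in both groups, and the lower of these was 1.83 times the highest of the other 3 libraries. This ratio was chosen after the values of Hmox1 were seen, so its rank is given with no test. A ratio at least as high was found for 3.66% of the 2130 genes whose mean level reached 100 CPM. Across the labeled libraries the SD relative to the mean was larger for Hmox1 than for 88.2% of these genes. It was 45.88% for Hmox1, and slightly larger for Srxn1 (45.95%) and Gsr (45.97%). For Nqo1 it was 63.95%. These genes were read less than Hmox1. The summed macrophage markers were lowest in the libraries numbered 1, at 55.2, 99.6 and 77.1 CPM in the labeled and 60.2 and 104 CPM in the unlabeled libraries, with all 7 markers found and none at 0 in all libraries. Single markers differed from the sum, and Cd68 was higher in unlabeled library 1 than in unlabeled library 2 (20.1 and 11.04 CPM). The part of other cells in the Hmox1 reads was not tested.

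The log2 fold change of Hmox1 was -0.070 ± 0.48 (SE), and its 95% interval from -1.21 to 1.07 leaves room for more than a doubling or halving of reads. Its direction turned with the library left out. It was 0.73 without unlabeled library 1 and -0.58 without unlabeled library 2, with an adjusted p of at least 0.69 over all alternatives run. The T>C rate was steadier than the reads. It was 0.0452, 0.0493 and 0.0495 in the labeled libraries, a mean of 0.0480 ± 0.00246 (SD, n = 3), which exceeded the rate of 97.2% of the 2123 deeply covered genes. Deeply covered here means 1000 or more T positions read in each labeled library. Without S4U the rate of Hmox1 was 0.00121 and 0.00273. The interval of Hmox1 is chr8:75826648-75827221, in exon 5 of 5.

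**Figure D1:**
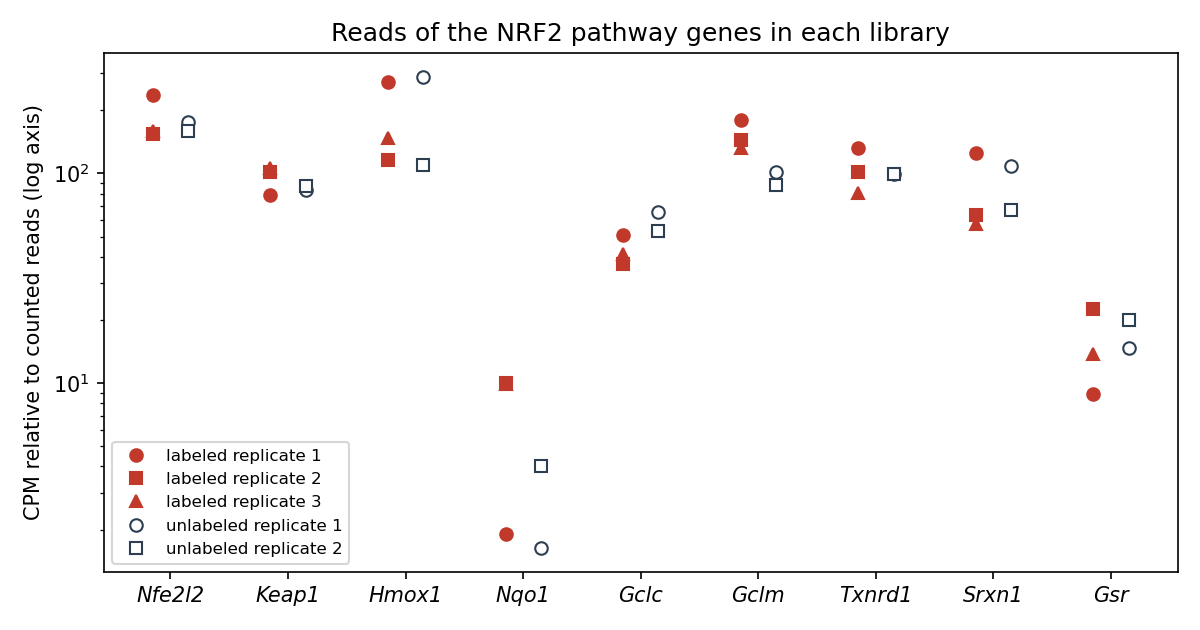
Level of each of the 9 genes in each library, in CPM relative to counted reads on a log axis; filled red symbols are the 3 labeled and open symbols the 2 unlabeled libraries, with the replicate number given by the shape. The labeled Gclm values of 132 to 181 CPM lie above both unlabeled ones, the labeled Gclc values of 36.8 to 50.8 CPM lie below both, and the other 7 genes overlap.

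Glutathione synthesis depends on glutamate-cysteine ligase, which is built from a catalytic subunit (Gclc) and a modifier subunit (Gclm). Gclm was read at 181, 145 and 132 CPM in the labeled and at 102.0 and 88.3 CPM in the unlabeled libraries. Every labeled library lay above both unlabeled ones, as for 8.2% of all genes tested (804). The log2 fold change was 0.76 ± 0.26 (SE, 95% interval 0.16 to 1.36), a 1.69-fold difference. The unadjusted p was 0.0205 and edgeR's adjusted p was 0.728, so Gclm did not pass the adjusted threshold. Over the 12 alternatives the adjusted p of Gclm ran from 7.2e-05, with the replicate number as a block, to 1.00, and in the other 11 it was at least 0.487. Among the 9 fibroblast markers Col1a1 separated the groups in the same direction and Pdgfra and Ddr2 in the opposite one, as did Cdh5, Emcn and Adgre1, while Cspg4 went with Col1a1, and their part in the result was not tested.

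Gclc went the other way in its levels. They were 50.8, 36.8 and 41.5 CPM in the labeled and 65.1 and 53.2 CPM in the unlabeled libraries, every labeled one below both unlabeled ones, as for 13.1% of all genes tested (1289). Its log2 fold change of -0.38 ± 0.29 (SE, 95% interval -1.06 to 0.30) had an unadjusted p of 0.229. Because both subunits were counted in the same libraries, the ratio of Gclm to Gclc reads does not depend on the scaling of a library. It was 3.56, 3.93 and 3.19 in the labeled and 1.57 and 1.66 in the unlabeled libraries. The groups had to separate in this ratio, since each subunit separates them in the opposite direction. This pair was chosen after the values were seen, so the ratio is given with no test.

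The T>C rate of Gclm was 0.0401, 0.0420 and 0.0502 in the labeled and 0.00065 and 0.00059 in the unlabeled libraries. Gclc had 0.0348, 0.0389 and 0.0385 in the labeled libraries, beside 0.00171 and 0 in the unlabeled ones. The 0 allows a rate of up to 0.00217 (3 conversions of 1384 covered T positions). Gclm was above Gclc in each labeled library, by the means 0.0441 ± 0.00538 and 0.0374 ± 0.00229 (SD, n = 3). The intervals are chr3:122060047-122060864 for Gclm, in exon 7 of 7, and chr9:77700534-77701771 for Gclc, in exon 16 of 16.

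Gsr, glutathione reductase, returns oxidized glutathione to its reduced form. It was among the weakly read genes, with 14, 27 and 7 reads in the labeled and 27 and 20 reads in the unlabeled libraries. These are levels of 8.88, 22.6 and 13.8 CPM and of 14.6 and 20.1 CPM, with the labeled values on both sides of the unlabeled ones. Its log2 fold change was -0.12 ± 0.51 (SE, 95% interval -1.32 to 1.09). Gsr had the lowest T>C rate of the 9 genes, 0.0383, 0.0281 and 0.0181 in the labeled libraries. The lowest of these counts 5 conversions in 277 covered T positions, with an exact 95% interval of 0.00589 to 0.0416 that reaches above the other labeled values. No conversion was seen in either unlabeled library. Gsr was counted at chr8:34187324-34188190, in exon 13 of 13.

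Txnrd1, the cytosolic thioredoxin reductase, keeps thioredoxin reduced with NADPH. Its levels were 133, 101.3 and 81.0 CPM in the labeled and 99.8 and 99.4 CPM in the unlabeled libraries, so the labeled values enclosed the unlabeled ones. The log2 fold change was 0.16 ± 0.28 (SE, 95% interval -0.51 to 0.82), and it was -0.027 without labeled library 1. The Txnrd1 rate of 0.0459, 0.0437 and 0.0467 was the second highest of the 9 genes by its mean, 0.0454 ± 0.00154 (SD, n = 3). In the unlabeled libraries 2 conversions were found among 5142 covered T positions and none among 2819. The interval is chr10:82731880-82733558, in exon 14 of 14.

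Srxn1, sulfiredoxin, repairs peroxiredoxins that have been over-oxidized. It was read at 126, 63.6 and 57.3 CPM in the labeled and at 109 and 67.3 CPM in the unlabeled libraries. As for Hmox1 and Nfe2l2, both libraries numbered 1 lay above all others, which held for 30% of all genes tested. The log2 fold change was -0.011 ± 0.40 (SE, 95% interval -0.96 to 0.94), and it ranged from -0.45 to 0.33 with 1 library left out. The T>C rate of Srxn1 was 0.0405, 0.0354 and 0.0287 in the labeled and 0.00071 and 0 in the unlabeled libraries. Its lowest value rests on 592 covered T positions in the shallowest library, with an exact 95% interval of 0.0168 to 0.0456. Its 2 distinct intervals overlap and have equal read counts in all 5 libraries, and the longer one, used here, is chr2:151951113-151953296, in exon 2 of 2.

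Nqo1, the quinone reductase that is widely used as a readout of NRF2 activity, was barely read. It had 3, 12 and 5 reads in the labeled and 3 and 4 reads in the unlabeled libraries, or 1.90, 10.04 and 9.88 CPM and 1.63 and 4.02 CPM. Its level was above that of 15.8% of the genes with a read in every labeled library. The log2 fold change of Nqo1 was the largest of the 9 genes at 1.41 ± 0.95 (SE), and its 95% interval ran from -0.84 to 3.66, with an unadjusted p of 0.181. That interval includes 0, and the value was 0.75 without unlabeled library 1, 2.11 without unlabeled library 2 and 2.01 without labeled library 1. The rate of 0.0444, 0.0290 and 0.0407 in the labeled libraries rests on 45 to 276 covered T positions. The count of 0 conversions among 75 covered T positions in unlabeled library 1 allows a rate of up to 0.0400, close to the labeled values. Nqo1 was counted at chr8:108114856-108115450, in exon 6 of 6.

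**Figure D2:**
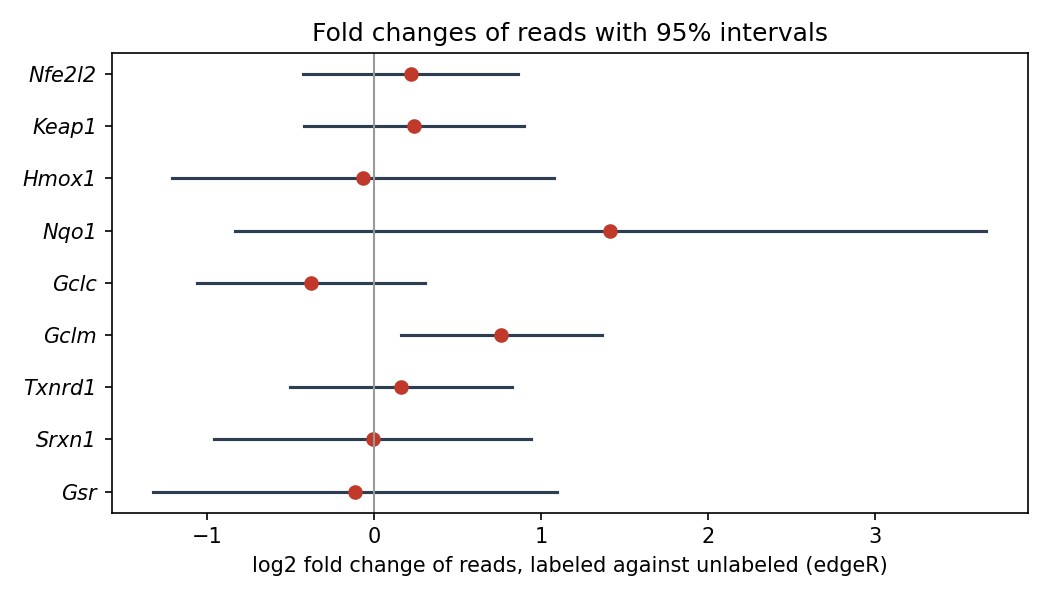
Log2 fold change of reads in labeled against unlabeled libraries for the 9 genes from edgeR (points), with 95% intervals (lines). The interval of Gclm, 0.16 to 1.36, is the only one that does not include 0, and those of Nqo1, Hmox1 and Gsr are the widest.

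By their mean T>C rate in the labeled libraries the genes ran from Hmox1 (0.0480) through Txnrd1 (0.0454), Nfe2l2 (0.0446), Gclm (0.0441), Keap1 (0.0390), Nqo1 (0.0380), Gclc (0.0374) and Srxn1 (0.0348) to Gsr (0.0281). Only the first step, from Hmox1 to Txnrd1, was larger than the greater SD of its pair (0.00256 against 0.00246), and Hmox1 was above Txnrd1 in 2 of the 3 libraries. For the other neighbours in this order the difference of the means was within the larger SD. Of these pairs Txnrd1 and Nfe2l2, Gclm and Keap1, and Srxn1 and Gsr kept their order in 3 of 3 libraries, and the others in 2 of 3. Hmox1, Txnrd1, Nfe2l2 and Gclm were the 4 of the 9 that were deeply covered. All 4 were above the median of the 2123 genes covered as deeply, which was 0.0388 with quartiles of 0.0343 and 0.0423. They exceeded 97.2%, 90.7%, 87.2% and 85.2% of these genes. The rank of Gclm rested on labeled library 3, the shallowest (0.0502). In labeled libraries 1 and 2 its rates of 0.0401 and 0.0420 lay between the quartiles. The other 5 genes had fewer covered T positions, and their means fell at or below 0.0390.

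**Figure D3:**
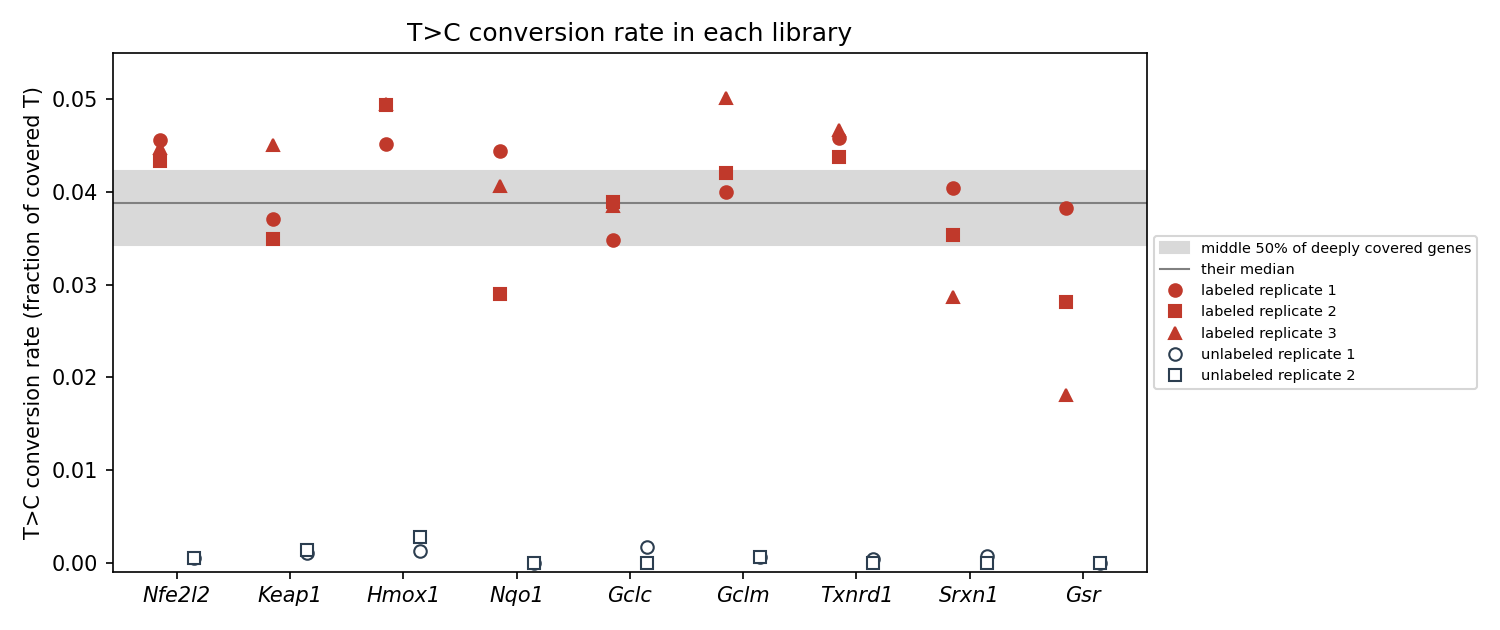
T>C conversion rate of each gene in each library, as a fraction of covered T positions, with labeled libraries filled and unlabeled libraries open; the grey band and line give the middle 50% and the median of the 2123 deeply covered genes. All labeled values of Hmox1, Txnrd1 and Nfe2l2 lie above the band, and the unlabeled values of the 9 genes stay at or below 0.00273.

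The share of reads with at least 1 conversion ordered the genes in another way than the rate. It was 67.8% ± 3.38 for Txnrd1, 67.5% ± 3.62 for Nfe2l2 and 66.2% ± 4.55 for Gsr (SD, n = 3), and 50.8% ± 7.17 for Hmox1 and 50.6% ± 2.21 for Gclm. The median of the deeply covered genes was 52.7%. A read of Txnrd1 covered 25.6 T positions on average in labeled library 1 and one of Nfe2l2 covered 24.3. A read of Hmox1 covered 16.2, below the median of 19.9 in that library. Gsr, lowest by rate, covered 26.1 to 39.6 T positions per read in the labeled libraries. Keap1, with 13.7 to 14.4 T positions per read, had the lowest share of converted reads, 46.7% ± 4.34 (SD, n = 3).

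The pathway around these genes was described with 7 lists of 76 companion genes, of which 65 had enough reads to be tested. None passed at an adjusted p below 0.05. At an unadjusted p below 0.05 Maff and Esd were higher and Gsta3 lower, so 2 and 1 of 65, beside 2.84% and 3.12% of all genes tested. In 37 of the 65 the fold change was above 0, with a median log2 fold change of 0.16, the value also found for the 9 genes. Every labeled library lay above both unlabeled ones for 7 of the 65 companions and below both for 9, beside 8.2% and 13.1% of all genes tested. Of the 30 companions that were deeply covered, 15 had a rate above the median of all genes covered as deeply.

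Among the genes that control NRF2, 13 of 13 were tested, 9 with a fold change above 0 and a median log2 fold change of 0.16. Maff encodes a small MAF protein that pairs with NRF2 and is itself known to respond to stress. Maff was at 88.2, 105 and 117 CPM in the labeled and at 38.5 and 41.2 CPM in the unlabeled libraries. The groups were well apart, with a log2 fold change of 1.45 ± 0.29 (SE), an unadjusted p of 0.00168 and an adjusted p of 0.531. Bach1, the repressor that competes with NRF2 for the same elements, was at 55.8, 40.2 and 49.4 CPM in the labeled and 81.9 and 73.3 CPM in the unlabeled libraries. Its log2 fold change was -0.60 ± 0.28 (SE, adjusted p 0.882). Of the deeply covered genes of this list Maff had the highest rate, 0.0452 ± 0.00566, and Sqstm1, the autophagy receptor p62 that binds KEAP1, the lowest, 0.0349 ± 0.0026 (SD, n = 3).

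In the list of glutathione synthesis and use 13 of 19 genes were tested, 5 with a fold change above 0 and a median log2 fold change of -0.27. Gsta3, a glutathione S-transferase, was at 67.3, 62.8 and 51.4 CPM in the labeled and 116 and 99.4 CPM in the unlabeled libraries, a log2 fold change of -0.75 ± 0.25 (SE, unadjusted p 0.0217, adjusted p 0.731). Gsto1, of the omega class, had the largest positive value of the list, 1.05 ± 0.63 (SE, log2), but its groups overlapped. Gstm2 had the lowest rate of the deeply covered genes of the list, 0.0163 ± 0.0035 (SD, n = 3), and Gsto1 the highest, 0.0458 ± 0.00734. The transferases form families of near-identical genes, so their counts are uncertain where reads could be split.

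In the thioredoxin and peroxiredoxin list 12 of 13 genes were tested, 9 with a fold change above 0 and a median log2 fold change of 0.38. Sesn2, a stress-induced sestrin, had the largest value of the list, 1.62 ± 0.91 (SE, log2), at levels of 7.61, 8.37 and 9.88 CPM in the labeled and 0.543 and 6.02 CPM in the unlabeled libraries. These levels rest on only 12, 10 and 5 reads in the labeled and 1 and 6 reads in the unlabeled libraries. Txnrd3 had the lowest, -0.35 ± 0.40 (SE, log2). Of the deeply covered genes of this list Txnl1, a thioredoxin-like protein of the proteasome, had the highest T>C rate, 0.0497 ± 0.00639, and Prdx5, a peroxiredoxin of mitochondria and peroxisomes, the lowest, 0.0259 ± 0.0024 (SD, n = 3).

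The remaining lists held 6 tested genes of NADPH supply (median log2 fold change -0.053), 9 of 13 of quinone, aldehyde and epoxide detoxification (-0.064), 8 of heme and iron handling (0.23) and 4 of superoxide and peroxide removal (0.039). Esd, an esterase that acts on S-formylglutathione, was at 247, 383 and 306 CPM in the labeled and 129.7 and 186 CPM in the unlabeled libraries, with a log2 fold change of 1.06 ± 0.32 (SE, unadjusted p 0.0132, adjusted p 0.704). Slc40a1, the iron exporter ferroportin, had a log2 fold change of -1.17 ± 0.54 (SE, adjusted p 0.883) at 5.71 to 24.1 CPM. Aldh2, the mitochondrial aldehyde dehydrogenase, was below both unlabeled libraries in every labeled one, -0.45 ± 0.25 (SE, log2). Its rate of 0.0134 ± 0.0032 and that of Sod3, the extracellular superoxide dismutase, 0.0106 ± 0.0017 (SD, n = 3), were the lowest among the deeply covered companions. Sod2, the mitochondrial enzyme, had 0.0432 ± 0.0032 and Fth1, the ferritin heavy chain, 0.0300 ± 0.0011. Ugdh, which makes UDP-glucuronate, had 0.0466 ± 0.00187, and the pentose phosphate enzymes Pgd and Tkt had 0.0411 ± 0.0044 and 0.0388 ± 0.0038.

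**Figure D4:**
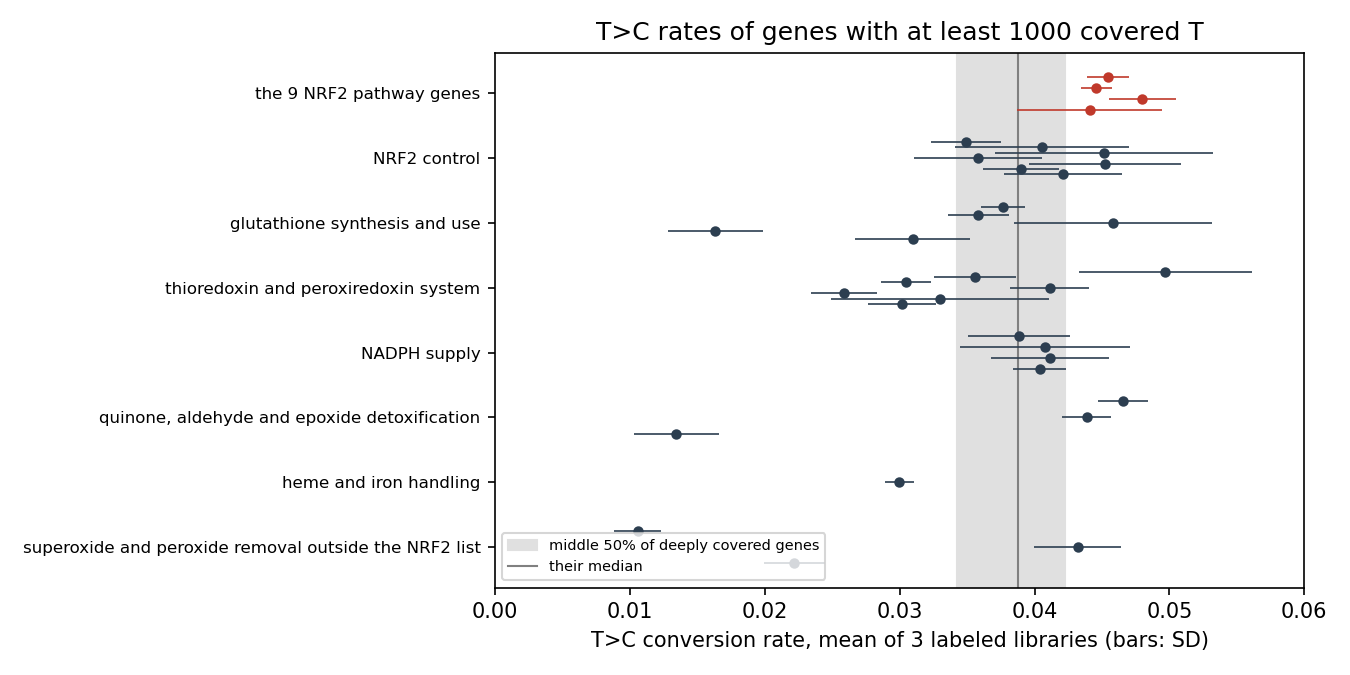
T>C conversion rate (mean of the 3 labeled libraries, bars give the SD) of the deeply covered genes (1000 or more T positions read in each labeled library), by list; the grey band and line give the middle 50% and the median of all genes covered as deeply. The 4 NRF2 pathway genes lie between 0.0441 and 0.0480, and the companions between 0.0106 and 0.0497.

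The companions whose rates were most like those of Hmox1, by the mean absolute difference over the 3 labeled libraries, were Ugdh (0.00145), Maff (0.0029) and Txnl1 (0.00326), out of 30 compared. Gclm, the lowest of the 4 deeply covered genes, was nearest to Gsto1 (0.0017), Maff (0.00228) and Nfe2l1 (0.00238).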

How the data were processed

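The authors moved the unique molecular identifiers into read headers with UMI-tools, aligned them with SLAM-DUNK 0.4.3 (genome mm39), deduplicated the alignments and counted on 3′ UTR intervals. The deposited tables hold counts of reads, of reads with a conversion, of covered T positions and of conversions. The deposited conversion rate is a fraction of covered T positions, and the deposited CPM divides reads by a per-library total.

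Repeated rows were used once (40428 of 97442 rows). T content matched GRCm39 in 40380 of 40380 intervals on its chromosomes. Exons came from the GRCm39 annotation and promoters from RefSeq (GRCm38.p6).

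T>C rates were compared by a beta-binomial likelihood-ratio test (two-sided, unadjusted p below 0.05) on intervals where each library covered 1 T or more, and reads by edgeR's quasi-likelihood test (TMM, filterByExpr, Benjamini-Hochberg). SE is the fold change divided by the root of the F statistic, and 95% intervals use the t distribution of that fit. Exact binomial intervals and limits for a count of 0 (3 conversions) cover counting error only. Members and lists were chosen with earlier results of these data known. The genes named are the 9 members, and from each list those with the highest and lowest T>C rate and the largest rise and fall of reads, and the 3 companions most like the highest and the lowest of the deeply covered members.

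Alternatives were other T minimums, adjusted p, limma on log odds (pseudocount 0.5), DESeq2, other size factors and filters, summed intervals, the replicate number as a block, and each library left out. On simulated data the beta-binomial test recovered 186 of 200 changed intervals among 3000 and called 7.14% of unchanged ones. Of 200 genes shifted by 2 on the log2 scale among 9504, edgeR recovered 101 (12 false calls), or 110 (30 false calls) when the replicate number was a block. No replicate effect was simulated. DESeq2 recovered 123 with 29 false calls, and limma on log odds 183 of 200 with 115. The count tests ran in R 4.3.3 with edgeR 4.0.16, DESeq2 1.42.0 and limma 3.58.1. The beta-binomial test ran in Python 3.11.15 with numba 0.67.0 and scipy 1.17.1, tables were handled in pandas 2.3.3, and figures drawn with matplotlib 3.10.9.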

Additional observations from a re-analysis of the deposited data

How the results depend on the processing

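The rates kept their direction in every alternative in which a gene of the 9 was tested (8 of them at a minimum of 100 covered T per library), while limma on the log odds called 1 other interval lower, or 2 with the replicate block. When each library had to cover 1000 T positions, 3156 intervals were left, of which 3154 were higher, among them 4 of the 9 genes, because the other 5 were covered less deeply. Reads depended more on the tool. DESeq2 called 13 genes higher and 7 lower, none of them among the 9, of which Nqo1 and Gsr got no adjusted p. The labels do not say that replicate numbers pair the libraries. Deviations from the group means correlated at 0.784 for the libraries numbered 1 and 0.638 for those numbered 2, but labeled library 3 also correlated with unlabeled library 2 (0.482). The deviations of 2 unlabeled libraries mirror each other, so the correlations of a labeled library with them differ only in sign. These values are therefore not separate evidence for each pair. With the replicate number as a block edgeR called 528 genes higher and 618 lower, and 1 of the 9, Gclm (log2 fold change 0.83, adjusted p 7.2e-05). In the simulation the block gave 30 false calls beside 12 without it. The simulated counts held no replicate effect, so this cannot show how the block acts where replicate numbers matter.

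Signs turned for 4 genes that never passed the threshold, and the cause was not tested. Under the block the log2 fold change was 0.036 for Hmox1 and 0.16 for Srxn1. With 1 library left out it ran from -0.58 to 0.73 for Hmox1, from -0.027 to 0.30 for Txnrd1, from -0.45 to 0.33 for Srxn1 and from -0.59 to 0.23 for Gsr. The fold change of Gclm stayed between 0.64 and 0.84 over 12 alternatives, and that of Gclc between -0.51 and -0.27. Without unlabeled library 1 or 2 Gclm was not called even at the unadjusted threshold; the lone control library is then assumed to vary like the labeled ones. Without scaling, the median over all genes moved from 0.018 to -0.057 and that of the 9 genes from 0.16 to 0.086. Leaving out labeled library 1 moved them to -0.0079 and 0.0043, so the positive median of the 9 genes rested largely on that library. Levels in CPM relative to counted reads were higher than the deposited CPM for all 9 genes by construction. Summing intervals raised the deposited CPM of Srxn1 from 7.98 to 15.97 and that of Nqo1 from 0.482 to 0.963, because their 2 intervals hold equal read counts in all 5 libraries. Depth limits Nqo1 and Gsr most. Nqo1 did not pass the filter on low counts without labeled library 2 or 3, or with a minimum of 10 reads, and its log2 fold change ran from 0.75 to 2.11 otherwise.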

Other observations

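In many genes the libraries numbered 1 stood apart in both groups. Both lay below the other 3 libraries for 22.7% of the 9807 genes tested (2228) and above them for 30% (2945). Of the 65 companion genes tested, 25 had both lowest and 13 both highest, and of the 9 NRF2 pathway genes 2 and 3. The labels do not say that the numbers pair the libraries, and the genes below were singled out after their values were seen. Ftl1, the ferritin light chain, was at 15.2, 421 and 273 CPM in the labeled and at 14.6 and 293 CPM in the unlabeled libraries. Libraries numbered 1 were thus far below the rest in both groups, and the fitted log2 fold change between groups was 0.68 ± 1.39 (SE). Ferritin genes have many near-identical copies in the mouse genome, so these counts are uncertain.

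Sqstm1 showed the same order, with 180.2, 617 and 502 CPM in the labeled and 231 and 701 CPM in the unlabeled libraries. Pgd, which makes NADPH in the pentose phosphate pathway, was at 46.3, 120 and 152 CPM in the labeled and 52.1 and 116 CPM in the unlabeled libraries. Tkt, transketolase of the same pathway, was the reverse, at 470.2, 270.3 and 211 CPM and at 802 and 269 CPM. Both of its libraries numbered 1 lay above all others, as for Hmox1, Srxn1 and Nfe2l2.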
